A study of Caenorhabditis elegans with 36 samples.

Results

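The C-type lectin genes of *C. elegans* were taken as all loci that carry a single gene name of the form *clec-* followed by a number. There were 263 such genes among 41875 loci, 238 protein-coding genes and 25 pseudogenes. One further locus joined *clec-88* with *ctsa-1* under a shared value and was not counted. RNA had been taken from synchronized day 1 adult hermaphrodites on OP50 bacteria of 3 genotypes, namely WT (Bristol N2) and the mutants *ppp-1(wrm10)* and *ppp-1(wrm15)*, which are named below by their alleles as *wrm10* and *wrm15*. Both alleles are point mutations of *ppp-1*, which encodes the gamma subunit of the translation initiation factor eIF2B. Both came from a chemical mutagenesis screen for long-lived animals and were outcrossed to WT, so variants that remained linked to them cannot be told apart from the alleles. From each genotype, total lysate RNA, RNA of the 80S monosome fraction and RNA of the polysome fraction without disomes were sequenced after sucrose gradients run with cycloheximide. With 4 libraries listed per group, the 9 groups had 36 libraries.

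C-type lectin domains are a protein fold that in many animal proteins binds sugars with the help of calcium. In *C. elegans* the family is large, many of its products are secreted, and a number of its genes are expressed in the intestine and change their expression when the animal meets pathogenic bacteria, partly under the control of the p38 MAP kinase PMK-1. eIF2B reloads the initiation factor eIF2 with GTP, a step that every round of translation initiation needs.

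Levels are in FPKM (read fragments divided by transcript length and by the mapped fragments of a library), so levels of different genes can be set side by side. The files used here give 1 value per group, pooled over its libraries. The spread between libraries and the depth are therefore unknown, no test was run, and a change is given as log2(mutant/WT) with no pseudocount. A gene was said to be past 2-fold when this value reached 1 or -1 with the same sign in both alleles. Both alleles were compared with the same WT value, so their agreement in sign is not a repeat of the experiment. The only measure of spread was the difference between the alleles. In total RNA of loci of 5 to 50 FPKM, log2(*wrm15*/*wrm10*) ran from -0.28 at the 5th percentile to 0.25 at the 95th, and in loci of 1 to 5 FPKM from -0.61 to 0.50. The RNA of *ppp-1* itself, listed under the name *eif-2Bgamma*, was 25.7 FPKM in WT, 23.6 in *wrm10* and 24.5 in *wrm15* total RNA, which does not check the labels of point mutants. Whole animals were used, so fewer cells of a type and less RNA per cell cannot be told apart.

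Of the 263 genes, 86 had at least 1 FPKM in total RNA of at least 1 genotype and are called expressed here. They were 82 protein-coding genes and the 4 pseudogenes *clec-152*, *clec-154*, *clec-155* and *clec-236*. Of these, 78 passed the limit in WT. The other 8 (*clec-92*, *clec-126*, *clec-197*, *clec-207*, *clec-208*, *clec-219*, *clec-221* and *clec-229*) passed it only in a mutant and so had to be higher there, and 75 passed it in all 3 genotypes. Among the 177 genes under the limit, 25 were listed at 0 in all 9 groups and 90 stayed under 0.1 FPKM in every group. Just inside the limit were *clec-92*, *clec-219* and *clec-207*, with highest total RNA values of 1.02, 1.06 and 1.12 FPKM. Just outside were *clec-36* at 0.916, *clec-180* at 0.912 and *clec-43* at 0.851 FPKM.

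The expressed genes were spread over all 6 chromosomes. Chromosome V held 96 of the 263 genes and 27 of the expressed ones, IV held 58 and 23, II held 50 and 16, I held 38 and 8, III held 18 and 9, and X held 3, all of them expressed. With a distance of up to 10 kb between expressed neighbours, 43 of the 86 genes fell into 16 local groups of at most 4 genes.

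The family's RNA was dominated by a few genes. In WT total RNA 5 genes exceeded 100 FPKM, 23 lay between 10 and 100, and 58 lay under 10. The 3 most abundant, *clec-87*, *clec-63* and *clec-50*, held 57.7% of the FPKM of the 86 genes. Together the expressed genes held 0.258% of the FPKM of all single-name loci in WT total RNA, 0.239% in *wrm10* and 0.261% in *wrm15*.

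The gene with the highest level was *clec-87* (WBcel235 I:10184462-10185520, minus strand, 233 codons). Its total RNA had 889 FPKM in WT, 855 in *wrm10* and 1078 in *wrm15*. Next came *clec-63* (II:12895638-12897446, plus strand, 411 codons), with 662, 581 and 667 FPKM in the same order. Both genes stayed well short of 2-fold: the log2 changes were -0.06 and 0.28 for *clec-87* and -0.19 and 0.01 for *clec-63*. Between the alleles *clec-63* differed by 0.20. For *clec-87* the difference was 0.33, above the 95th percentile of 0.23 for loci of at least 50 FPKM. Below them, *clec-50* had 177, 168 and 178 FPKM and *clec-91* had 172, 169.9 and 174 FPKM. The pooled values give no precision for the order of these genes. The remaining genes among the 10 most abundant were *clec-47* (165 FPKM in WT), *clec-150* (96.0), *clec-41* (93.4), *clec-1* (69.6), *clec-65* (48.5) and *clec-265* (42.4).

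**Figure D1:**
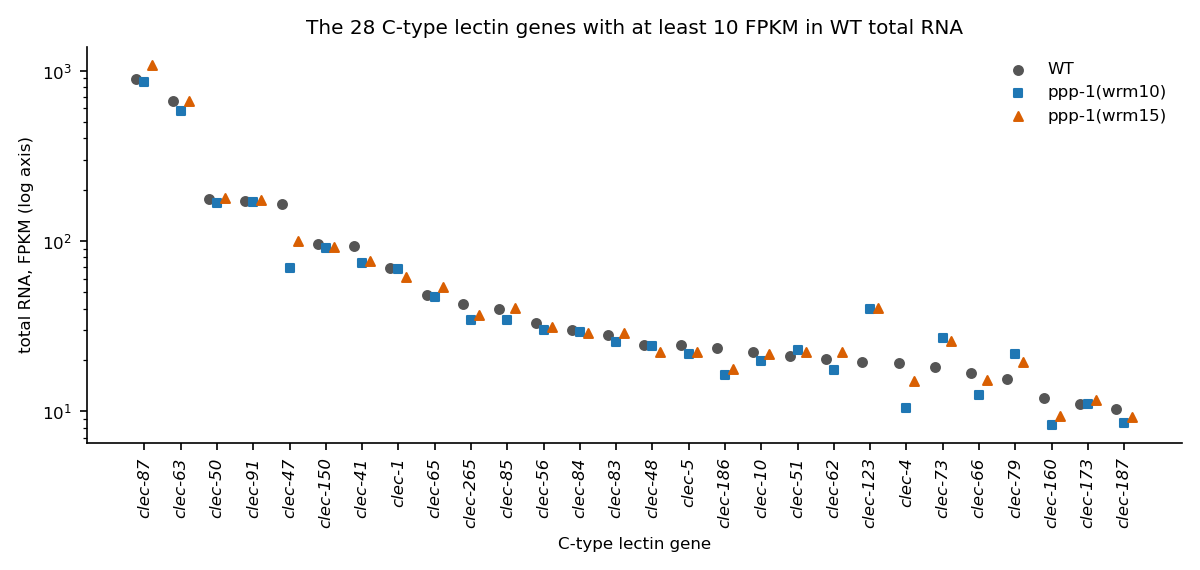
Total RNA level in FPKM (log axis) of the 28 C-type lectin genes with at least 10 FPKM in WT, ordered by the WT level. Each point is the pooled value of a genotype (grey circle WT, blue square *ppp-1(wrm10)*, orange triangle *ppp-1(wrm15)*), without error bars because the values are pooled; *clec-47* lies lower and *clec-123* higher in both mutants.

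In WT most of the family had a higher polysome-to-total ratio than the median locus. The log2 ratio of polysome to total FPKM had a median of 0.81 over the 86 genes, against 0.08 over 12692 expressed loci. It was above 0 for 71 genes, or 82.6%, against 53.0% of all loci. The monosome-to-total ratio had a median of -0.10 over the family and -0.07 over all loci. The FPKM share of the family was 0.333% in WT polysome RNA and 0.269% in WT monosome RNA. FPKM is relative to the other RNA of a fraction, so a ratio shows a gene's standing among that RNA and not a share of its molecules.

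Among the 40 genes with at least 5 FPKM in WT total RNA, the highest polysome-to-total ratios belonged to *clec-83* (log2 ratio 1.25), *clec-66* (1.17), *clec-117* (1.06), *clec-80* (1.06) and *clec-265* (1.04). For example, *clec-83* had 28.2 FPKM in total and 66.99 in polysome RNA of WT. The lowest ratio of the family belonged to its most abundant gene: *clec-87* had 889 FPKM in total, 120.3 in monosome and 84.7 in polysome RNA, a log2 ratio of -3.39. In the same direction, *clec-91* had 172 FPKM in total, 38.2 in monosome and 74.0 in polysome RNA (log2 ratio -1.22), and *clec-90* had 6.41, 4.09 and 2.499 FPKM (-1.36). At the low end these were followed by *clec-84* and *clec-97*, whose ratios of 0.01 and 0.06 showed no depletion.

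**Figure D2:**
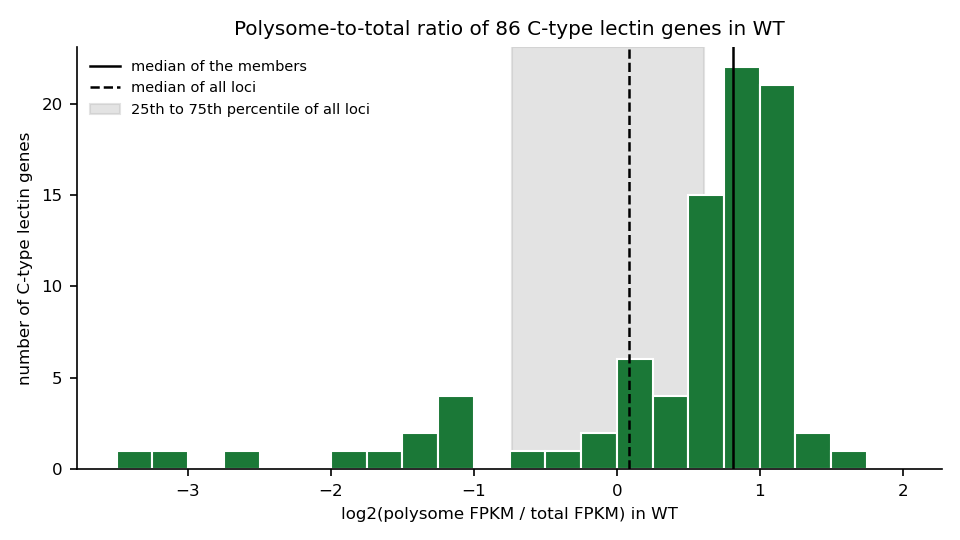
Histogram of log2(polysome FPKM / total FPKM) in WT for the 86 expressed C-type lectin genes, with the family median (solid line, 0.81), the median of all expressed loci (dashed line, 0.08) and the 25th to 75th percentiles of all loci (grey band). Most genes lie to the right of the band, and a small group with *clec-87* lies far to the left.

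The 9 oocyte and embryo markers listed for the check of cell types also had low ratios. Their WT polysome-to-total log2 ratios ran from -3.75 to -0.98 with a median of -1.08, the lowest being *pos-1*, a maternal RNA-binding protein gene. The markers of intestine, by contrast, had a median of 0.73 and those of sperm 0.15. High ratios were not particular to the family: markers of pharynx, hypodermis and body wall muscle had medians of 0.92, 0.77 and 0.70. Infection response genes outside the family, listed below, had 1.02. Lower medians were those of neurons (0.26), gonad sheath and spermatheca (0.31) and innate immune signalling (-0.04). In polysome RNA, the log2 change of *clec-87* was 0.37 in *wrm10* and 0.81 in *wrm15*, and that of *clec-91* was 0.17 and 0.37. The oocyte and embryo markers had medians of -0.05 and 0.36, and 3 of the 9 were above 0 in both alleles. They ran from -0.27 to 0.45 in *wrm10* and from 0.15 to 0.76 in *wrm15*, with *pos-1* the highest in both. The part of oocyte and embryo RNA in these values was not tested. The locus of *clec-87* also holds *iars-2*, and that of *clec-91* holds ZK858.8, so reads of those genes may enter both values.

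The comparison of the mutants with WT asked which RNAs change in amount and in ribosome association when eIF2B is altered. In total RNA the typical C-type lectin gene hardly moved: the median log2 change over the 86 genes was -0.02 in *wrm10* and 0.08 in *wrm15*, against -0.06 and -0.03 over all loci. In both alleles 37 of the 86 genes were above 0 and 31 below, whereas 30.1% of all loci were above and 47.6% below. Among the 78 genes expressed in WT the counts were 29 and 31, whereas 28.4% and 49.4% of all loci expressed in WT were above and below. Past 2-fold higher in both alleles were 10 of the 86 genes, and the background over all expressed loci was 4.52%. Of these 10, 5 were among the 8 genes that had passed the 1 FPKM limit through a mutant alone, which leaves 5 of the 78 expressed in WT. Over all loci expressed in WT the share was 3.92%. These shares are not matched for level: of loci of at least 10 FPKM in WT only 1.08% were past 2-fold higher. In the family 58 of the 86 genes lay under 10 FPKM. None was past 2-fold lower in both alleles, where the background was 0.367%. With no counts the difference of these shares from the background cannot be tested.

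The 5 genes that were higher in total RNA and expressed in WT were *clec-142*, *clec-119*, *clec-153*, *clec-166* and *clec-123*. The clearest was *clec-142* (II:8278678-8281035, plus strand, 552 codons). Its total RNA had 1.53 FPKM in WT, 4.60 in *wrm10* and 4.03 in *wrm15*. Its monosome RNA had 0.997, 6.88 and 6.81 FPKM, and its polysome RNA had 1.39, 6.88 and 6.49 FPKM. Both mutants thus stood far above WT in every RNA class, with log2 changes of 1.59 and 1.39 in total, 2.79 and 2.77 in monosome and 2.30 and 2.22 in polysome RNA. Its locus overlaps *nst-1*.

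*clec-119* (II:1255937-1258375, plus strand, 605 codons) had 6.15 FPKM in WT, 14.2 in *wrm10* and 13.6 in *wrm15* total RNA. In polysome RNA it had 7.95, 16.7 and 17.5 FPKM, and in monosome RNA 5.95, 16.5 and 15.2 FPKM. The mutants lay close to each other in each class, and the changes were 1.21 and 1.15 in total, 1.47 and 1.35 in monosome and 1.07 and 1.14 in polysome RNA. No other protein-coding gene was annotated in its locus.

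*clec-153* (III:4635247-4637534, plus strand, 580 codons) had 4.63, 10.3 and 10.6 FPKM in total RNA of WT, *wrm10* and *wrm15*. Its monosome RNA had 4.74, 15.0 and 14.4 FPKM and its polysome RNA had 8.49, 17.5 and 17.2 FPKM. The monosome change of 1.66 and 1.61 was thus larger than the polysome change of 1.04 and 1.02. Its neighbour *clec-151*, also long at 591 codons, changed less, by 0.39 and 0.37 in total RNA. The pseudogenes *clec-152* and *clec-154* lie in the same locus. Of these, *clec-152* was past 2-fold only in monosome RNA, where it had 0.552 FPKM in WT and 1.31 and 1.197 in the mutants. The 4 genes are assigned to one stretch that also holds *pfas-1*, *lips-3* and *lron-5*, and reads of near copies cannot be told apart here.

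*clec-123* (II:3114234-3116762, plus strand, 578 codons) was the most abundant of the 5, with 19.6 FPKM in WT, 39.9 in *wrm10* and 40.4 in *wrm15* total RNA. With changes of 1.02 and 1.04 it lay just inside the 2-fold limit. Its monosome RNA had 23.4, 48.0 and 52.8 FPKM, but its polysome RNA only 30.4, 45.3 and 48.9 FPKM, a change of 0.58 and 0.69. *clec-166* (IV:1249192-1251342, minus strand, 466 codons) had 3.93, 8.52 and 9.13 FPKM in total RNA. In polysome RNA it had 7.93, 15.7 and 18.04 FPKM, which at 0.99 and 1.19 was just outside the limit. Its locus also holds F38A1.11.

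The other 5 were low in every group. *clec-207* had 0.170 FPKM in WT, 1.12 in *wrm10* and 0.717 in *wrm15* total RNA, and *clec-208*, which lies beside it on chromosome V, had 0.458, 1.60 and 1.07 FPKM. Their polysome RNA stood at 2.28 and 2.43 FPKM for *clec-207* and at 2.02 and 1.58 for *clec-208* in the mutants, against 0.430 and 0.345 in WT. They were the only neighbours within 10 kb of each other that were both past 2-fold in total RNA. Likewise *clec-197* had 0.462, 2.11 and 1.31 FPKM, *clec-219* 0.225, 1.06 and 0.754, and *clec-92* 0.223, 0.915 and 1.02 in total RNA. All of these had entered the set because a mutant was high, so their direction carries no weight.

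**Figure D3:**
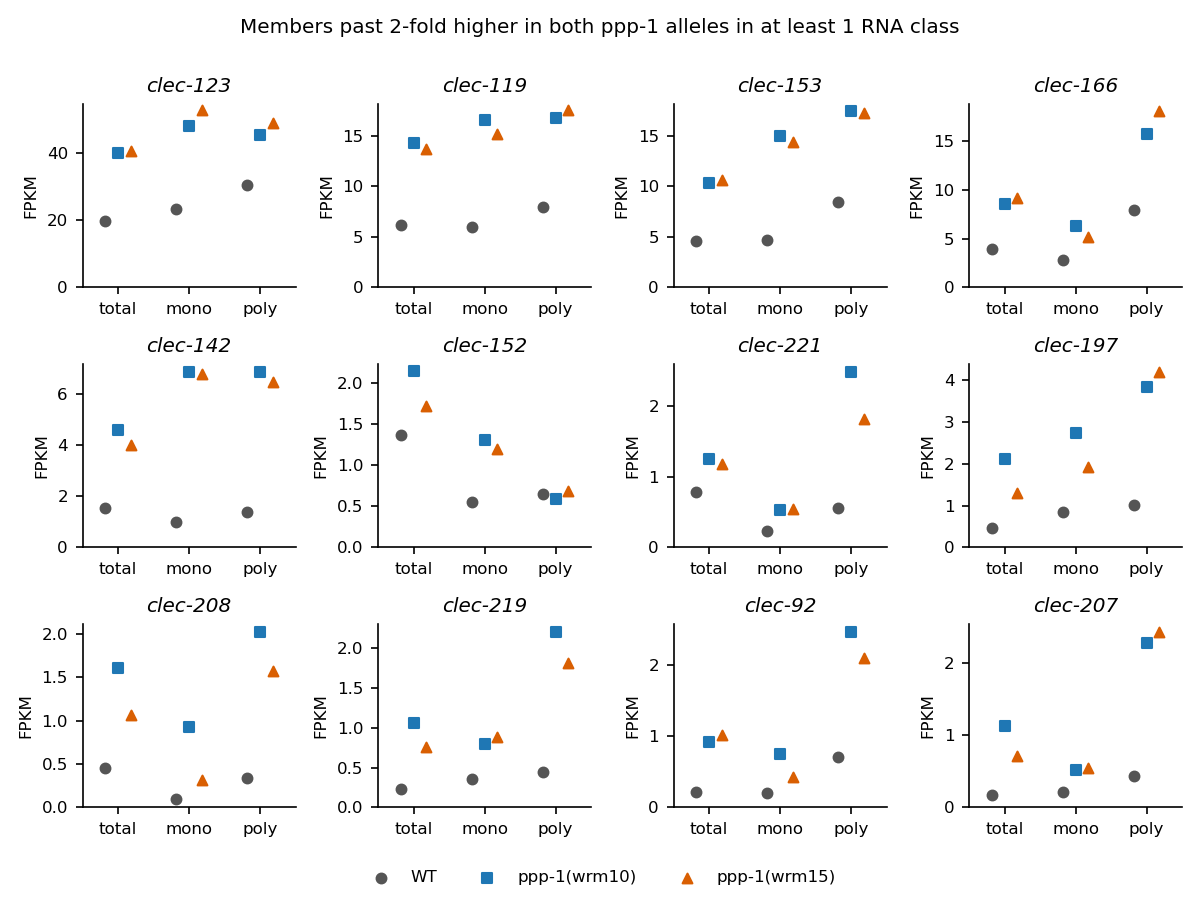
FPKM on linear axes from 0 in total, monosome (mono) and polysome (poly) RNA for the 12 C-type lectin genes past 2-fold higher in both *ppp-1* alleles in at least 1 RNA class. Symbols give the pooled value of WT (grey circle), *ppp-1(wrm10)* (blue square) and *ppp-1(wrm15)* (orange triangle); *clec-142* shows the highest ratio of mutant to WT among genes expressed in WT, and *clec-152* shows none in polysome RNA.

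The counts in ribosome-bound RNA were similar to those in total RNA. In monosome RNA 11 of the 86 genes were past 2-fold higher in both alleles, with a background of 5.76%. Among the 78 expressed in WT they were 5, against 5.25% of all loci expressed in WT. They were the genes of total RNA without *clec-166* and with *clec-152* and *clec-221*. No gene was past 2-fold lower in both, with a background of 0.401%. In polysome RNA 9 genes were past 2-fold higher, with a background of 3.99%, and none was lower, with a background of 0.578%. Of the 9, *clec-119*, *clec-142* and *clec-153* were among the 78, against 3.55% of all loci expressed in WT. These backgrounds are not matched for level either. Of loci of at least 10 FPKM in WT total RNA, 1.58% were past 2-fold higher in monosome and 0.729% in polysome RNA. The median polysome change over the family was -0.12 in *wrm10* and -0.03 in *wrm15*, against -0.06 and -0.02 over all loci.

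Relative to total RNA, polysome association changed by small amounts, with more genes lower than higher. The change in log2(polysome/total) had a median of -0.09 in *wrm10* and -0.01 in *wrm15*, against -0.02 and 0.00 over all loci. It was below 0 in both alleles for 41 of the 86 genes and above 0 for 21. Of all loci, 39.4% were below and 36.0% above. Among the 28 genes of at least 10 FPKM in WT total RNA, 17 were below 0 in both alleles and 3 above. Of all loci at this level, 40.4% were below and 37.8% above. One gene, *clec-221* (V:10953453-10954434, minus strand, 204 codons), was past 2-fold higher in this ratio in both alleles, with a background of 0.555%, and none was lower, with a background of 0.388%. Its polysome RNA had 0.552 FPKM in WT, 2.49 in *wrm10* and 1.82 in *wrm15*, while its total RNA had only 0.790, 1.26 and 1.18 FPKM. The ratio changes were 1.50 and 1.14, at levels near the 1 FPKM limit. It had passed that limit through the mutants alone, and 0 of the 78 genes expressed in WT were past 2-fold in the ratio. Just outside lay *clec-104*, with 0.761, 1.21 and 1.23 FPKM in polysome RNA against 1.87, 1.58 and 1.13 in total RNA (0.91 and 1.42), and, in the other direction, *clec-260*, with 0.796, 0.511 and 0.472 FPKM in polysome RNA against 1.85, 1.96 and 2.23 in total RNA (-0.73 and -1.03).

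A set of 5 genes, chosen after their values were seen and including *clec-123* from above, was higher in total and monosome RNA of both mutants while polysome RNA moved less or not at all: *clec-73*, *clec-79*, *clec-117*, *clec-123* and *clec-175*. *clec-73* had 18.3 FPKM in WT and 26.96 and 26.01 in the mutants in total RNA, and 28.6, 28.8 and 29.7 FPKM in polysome RNA. *clec-117* had 10.3, 18.8 and 20.9 FPKM in monosome RNA but 20.3, 18.3 and 18.6 in polysome RNA. Over the 5 genes the polysome-to-total change ran from -0.55 to -0.41 in *wrm10* and from -0.66 to -0.21 in *wrm15*, all short of the 2-fold limit. The shared sign follows from the choice of genes, and how many other loci show this pattern was not counted.

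Several of the genes that were higher encode long proteins for this family. A limit of 500 codons was also chosen after the values were seen, and long loci outside the family were not examined. Of the 13 expressed genes with at least 500 codons, 10 were above 0 in total RNA of both alleles, against 30.1% of all expressed loci. These 10 include *clec-119*, *clec-123*, *clec-142* and *clec-153*. Level was not matched in this comparison. Of the 58 family genes under 10 FPKM in WT, 33 were above 0 in total RNA of both alleles, but only 4 of the other 28. Of all loci of at least 10 FPKM 21.1% were above 0. The median total RNA change of the 13 genes was 0.48 in *wrm10* and 0.37 in *wrm15*. The 69 shorter protein-coding genes had medians of -0.05 and 0.02. In monosome RNA the medians of the long genes were 0.64 and 0.63 and in polysome RNA 0.07 and 0.12. The 3 long genes below 0 in total RNA of both alleles were *clec-41*, *clec-160* and *clec-204*.

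**Figure D4:**
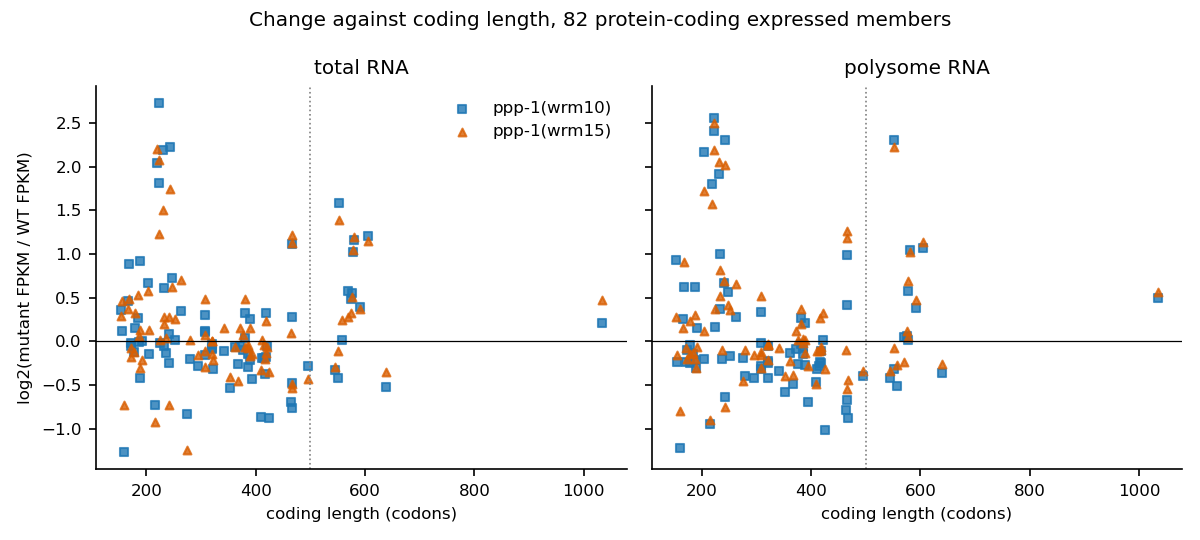
log2(mutant FPKM / WT FPKM) in total (left) and polysome RNA (right) against coding length in codons for the 82 protein-coding expressed genes, with blue squares for *ppp-1(wrm10)*, orange triangles for *ppp-1(wrm15)* and a dotted line at 500 codons. Most genes right of the line lie above 0 in total RNA (10 of 13 in both alleles), and the highest points at the short end are the low-level genes that passed the limit only in a mutant.

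Of the 9 sperm markers found, 1 was past 2-fold higher in both alleles, *spe-38*. In total RNA 8 were above 0 in both alleles, against 30.1% of all expressed loci. The medians of the 9 markers were 0.31 and 0.30 in total and 0.56 and 0.53 in monosome RNA. *spe-38*, a sperm protein gene needed for fertilization, had 1.14 FPKM in WT and 7.12 and 6.61 in the mutants in total RNA, and *spe-9*, another fertilization gene, had 1.62, 3.08 and 2.78 FPKM. The summed level of the sperm list was 276 FPKM in WT, 324 in *wrm10* and 338 in *wrm15*, and *gsp-3* was among those that changed little. In polysome RNA 5 of the 9 were above 0 in both alleles and 2 below, and the medians were 0.50 and 0.29. The sum was lower there in the mutants, with 351, 297 and 296 FPKM. The 2 markers below 0 were *gsp-3* and *ssp-10*, the latter with 188, 149 and 145 FPKM. Of the 5 hypodermis markers, 4 were also above 0 in total RNA of both alleles, and the list had medians of 0.66 and 0.49. The other, *col-19*, held most of the list's level and was lower, with 1135 FPKM in WT, 1038 in *wrm10* and 1040 in *wrm15*. The summed level of the hypodermis list was lower in both mutants, with 1149, 1062 and 1061 FPKM in total RNA. In monosome RNA this sum was 608, 407 and 464 FPKM, of which *col-19* held 600, 395 and 454. The other 4 markers were above 0 in monosome RNA of both alleles, and the list had medians of 0.49 and 0.46. The part of sperm or hypodermis RNA in the higher *clec* genes was not tested.

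No gene was past 2-fold lower in both alleles, and those that came nearest passed the limit in 1 allele. The abundant *clec-47* (V:15175759-15176324, plus strand, 160 codons) had 165 FPKM in WT, 69.1 in *wrm10* and 99.7 in *wrm15* total RNA. Its monosome RNA had 181, 78.6 and 103.9 FPKM and its polysome RNA 181, 77.4 and 104.2 FPKM. Every RNA class thus gave the same order of genotypes, with changes of -1.26 and -0.73, -1.20 and -0.80, and -1.22 and -0.79, so it was past 2-fold in *wrm10* alone. The difference between the alleles in total RNA, 0.53, was the highest of the 9 family members of at least 50 FPKM, where the 95th percentile over all loci was 0.23. *clec-165* had 2.45, 1.38 and 1.04 FPKM in total RNA (-0.82 and -1.24), past 2-fold in *wrm15* alone.

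Among the 28 genes with at least 10 FPKM in WT total RNA, 15 were below 0 in total RNA of both alleles and 4 above. In monosome and in polysome RNA 21 of the 28 were below 0 in both alleles. Of all loci at this level, 57.4% were below 0 in both alleles in total, 50.5% in monosome and 50.3% in polysome RNA. The median changes of the 28 genes were -0.27 and -0.25 in monosome and -0.23 and -0.10 in polysome RNA, against -0.09 and -0.05 and -0.09 and -0.02 over those loci. The 8 intestine markers had monosome medians of -0.29 and -0.26 and polysome medians of -0.18 and -0.05. Other lists were low as well: the monosome medians were -0.34 and -0.42 for body wall muscle, -0.30 and -0.60 for pharynx and -0.26 and -0.26 for neurons. In polysome RNA they were -0.21 and -0.29, -0.25 and -0.58, and -0.05 and -0.20. The part of any of these tissues in the lower *clec* values was not tested.

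Genes of the family known from bacterial infection or p38 MAPK studies formed a list of 23, of which 15 were expressed. None was past 2-fold in both alleles in any RNA class. In total RNA 7 were below 0 and 3 above 0 in both alleles, in monosome RNA 11 and 2, and in polysome RNA 10 and 3. Over all expressed loci 47.6%, 43.2% and 44.1% were below 0 in both alleles in total, monosome and polysome RNA. The medians were -0.19 and 0.00 in total, -0.40 and -0.26 in monosome and -0.25 and -0.10 in polysome RNA.

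The largest decrease of the list in *wrm10* was that of *clec-4* (II:12578331-12581113, minus strand, 425 codons), which had 19.1 FPKM in WT, 10.4 in *wrm10* and 15.0 in *wrm15* total RNA. Its polysome RNA had 38.2, 19.02 and 30.7 FPKM. *wrm15* lay between WT and *wrm10* in each class, with changes of -0.87 and -0.35 in total, -1.17 and -0.50 in monosome and -1.01 and -0.32 in polysome RNA. *clec-67* had 9.59, 5.64 and 6.63 FPKM in total RNA, a change of -0.77 and -0.53, and its neighbour *clec-72* had 2.45, 1.76 and 1.74 FPKM (-0.48 and -0.49). In contrast *clec-70*, from the same local group, had 1.06, 1.28 and 2.30 FPKM in total and 1.58, 2.11 and 3.79 FPKM in polysome RNA, higher by 2-fold in *wrm15* alone. *clec-52* and *clec-86* were above 0 in every class of both alleles, by 0.14 to 0.52.

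Of the other infection-linked genes, 4 of the more abundant had total RNA levels close to WT in both mutants. *clec-85* had 39.8, 34.5 and 40.4 FPKM, *clec-83* 28.2, 25.7 and 28.9, *clec-84* 30.1, 29.1 and 28.7, and *clec-65* 48.5, 46.9 and 53.8 FPKM. *clec-41* was lower by similar amounts in both alleles, with 93.4, 74.5 and 76.4 FPKM. *clec-66* had 16.7, 12.44 and 15.2 FPKM, *clec-49* 9.83, 9.28 and 9.84, and *clec-7* 4.29, 3.31 and 3.72 FPKM.

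**Figure D5:**
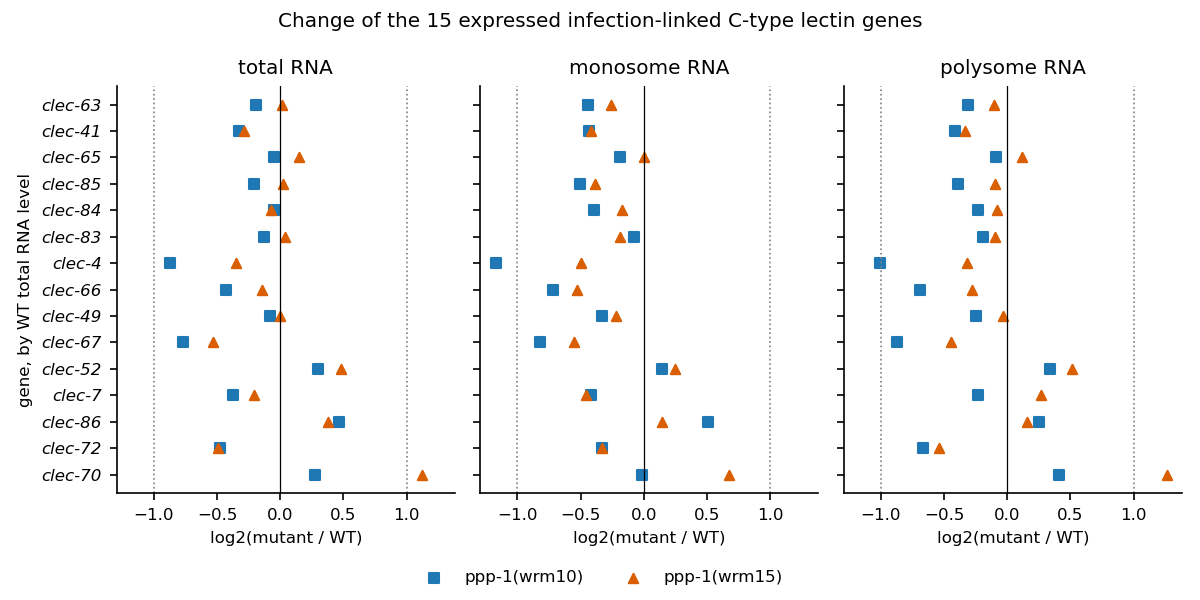
log2(mutant FPKM / WT FPKM) of the 15 expressed infection-linked C-type lectin genes in total, monosome and polysome RNA, ordered by WT total RNA level, with blue squares for *ppp-1(wrm10)*, orange triangles for *ppp-1(wrm15)* and dotted lines at the 2-fold limits. Most monosome and polysome points lie left of 0 (11 and 10 of 15 in both alleles), *clec-4* passes the left line in *ppp-1(wrm10)* alone and *clec-70* the right line in *ppp-1(wrm15)* alone.

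Genes of innate immune signalling were nearly level. All 24 listed innate immune signalling genes were expressed, none was past 2-fold in both alleles, and their total RNA medians were 0.00 and 0.01. One exception was *pmk-1*, the p38 MAP kinase gene itself, which had 22.6 FPKM in WT, 20.8 in *wrm10* and 8.45 in *wrm15* total RNA. Its monosome RNA had 23.9, 23.3 and 10.1 FPKM and its polysome RNA 23.3, 21.5 and 9.93 FPKM, so it was low in *wrm15* alone in each class (-1.42, -1.24 and -1.23). The upstream kinase gene *sek-1* had 13.999, 13.9 and 14.3 FPKM, and *atf-7*, a transcription factor gene of the same pathway, 66.4, 63.9 and 62.1 FPKM in total RNA.

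Infection response genes outside the family had lower medians. Of the 26 listed, 20 were found and 19 expressed. In total RNA of both alleles 14 were below 0 and 2 above 0, against 47.6% and 30.1% of all expressed loci. The medians of the 19 genes were -0.43 and -0.28 in total, -0.51 and -0.46 in monosome and -0.50 and -0.29 in polysome RNA. *irg-1*, an infection response gene, had 6.87, 2.87 and 2.98 FPKM in total RNA and was the only gene of this list past 2-fold in both alleles there. In monosome RNA *dod-17* and *dod-22* were past 2-fold lower in both alleles, and in polysome RNA *irg-1*, *dod-17* and *dod-22*.

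Few genes of the family differed by 2-fold or more between the alleles, but the family's spread was wider than that of all loci. The 5th and 95th percentiles of log2(*wrm15*/*wrm10*) were -0.49 and 0.48 in total RNA, against -0.44 and 0.34 over all loci. In monosome RNA they were -0.71 and 0.60, against -0.53 and 0.36. In polysome RNA 72.1% of the genes were higher in *wrm15*, against 57.6% of all loci. Levels were not matched in this comparison. In total RNA no expressed gene differed by 2-fold or more between *wrm10* and *wrm15*, with a background of 1.67%, and in polysome RNA none did, with a background of 1.57%. In monosome RNA 4 did, *clec-3*, *clec-126*, *clec-139* and *clec-208*, or 4.65% of the family, with a background of 1.69%. All 4 were low there, with 1.33 FPKM at most in any genotype.

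Neighbouring genes of a local group often differed. In the group of *clec-67*, *clec-70*, *clec-72* and *clec-73* on chromosome IV, total RNA changes ran from -0.77 to 0.56 in *wrm10* and from -0.53 to 1.12 in *wrm15*. In that of *clec-165*, *clec-166*, *clec-169* and *clec-170* they ran from -0.82 to 1.12 and from -1.24 to 1.22. The group of *clec-62*, *clec-63*, *clec-65* and *clec-66* on chromosome II, which spans WT levels from 16.7 to 662 FPKM, varied less, from -0.43 to -0.05 and from -0.14 to 0.15. Of the 86 expressed genes, 19 lay in a locus that also holds another protein-coding gene, and how the libraries kept strand is not given in the sources used here. Without these loci, 7 genes were past 2-fold higher in both alleles in total, 8 in monosome and 7 in polysome RNA. Of those expressed in WT, only *clec-119* and *clec-123* then remained in total RNA.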

How the data were processed

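The authors mapped reads to WBcel235 (Ensembl 91) with HISAT2 2.1.0, assembled transcripts with StringTie 1.3.4d, and quantified and compared groups with Cuffdiff of Cufflinks 2.2.1. The FPKM values deposited by the authors are pooled, 1 per group, over the 4 libraries the labels list. The table also holds the authors' log2 fold changes, test statistics, p-values and q-values, which were not used. It gives no counts per library, so depth and its precision are unknown.

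From the FPKM, log2 ratios were computed with Python 3.11.15, numpy 2.4.6 and pandas 2.3.3, without a pseudocount, and drawn with matplotlib 3.10.9. Loci with a single name and at least 1 FPKM in a total RNA group (13048) formed the background, less those with a 0 in a value needed. Shares were also taken over loci of at least 1 or 10 FPKM in WT total RNA. The script was checked on simulated data. All 263 names matched RefSeq gene symbols, and gene spans and coding lengths come from the RefSeq and Ensembl 115 annotations of the same build.

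Named genes were the 10 highest in WT, those past 2-fold in both alleles (up to 10 in total RNA, 5 in each fraction and in the ratio), the 5 highest and 5 lowest WT ratios at 5 FPKM or more, the infection-linked list, neighbours within 10 kb and genes beside the limits. Members and lists were chosen with earlier results of these data known. Alternatives were 0.1 or 1 FPKM added, no filter, 1 FPKM in every total RNA group, centring on the median, a 1.5-fold limit and the monosome as the ratio's denominator. A mean of at least 1 FPKM over the 9 groups and leaving out loci with another protein-coding gene were added after seeing the data. Lists of body wall muscle, pharynx, neurons and gonad sheath and spermatheca were also read. None of their genes was past 2-fold in both alleles.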

Additional observations from a re-analysis of the deposited data

How the results depend on the processing

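No test was run, so these values show only how counts and changes move with the choices made. No paired analysis was possible because each group has a single pooled value, and for the same reason no replicate was left out. Of 66 recomputed counts of genes past the limit in both alleles, 38 stayed within 1.5 times. Most of these 38 were counts of lower genes, which were 0 as reported and stayed at 0, so they say little about stability. With 1 FPKM added, the genes higher in total, monosome and polysome RNA and in the ratio were 2, 4, 3 and 0 (10, 11, 9 and 1 as reported). With 0.1 FPKM added, 6 were higher in monosome RNA. Without a filter, the higher genes were 25, 23, 29 and 8 and the lower ones 4, 4, 6 and 12. With 1 FPKM asked in every total RNA group, 5, 5, 3 and 0 were higher. With a 1.5-fold limit, 19 were higher in monosome RNA and 6 in the ratio, and 3, 2, 3 and 1 were lower. With monosome RNA as the denominator of the ratio, 2 were higher and 3 lower. With a mean of the 9 groups of at least 1 FPKM, an alternative chosen after seeing the data, 6, 7 and 5 were higher in total, monosome and polysome RNA. The fall in counts with 1 FPKM added or in all groups follows from the construction, since both take out or damp the low genes. Planned counts of sequence motifs and cysteines were not run. Depth is unknown, so changes of genes near 1 FPKM have no known precision.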

Other observations

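Of the 177 C-type lectin genes under 1 FPKM in all total RNA groups, 11 reached 1 FPKM in a ribosome fraction. *clec-137* had 0.126 FPKM in WT, 0.466 in *wrm10* and 0.614 in *wrm15* total RNA, and 0.533, 1.39 and 1.32 FPKM in polysome RNA. *clec-99* had 0.395, 1.40 and 1.72 FPKM in polysome RNA. *clec-36* went the other way, with 1.63, 1.29 and 1.195 FPKM.

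In total RNA 3 of the 5 listed pharynx genes were lower in *wrm15* and near WT in *wrm10*. The pharyngeal myosin gene *myo-2* had 19.6, 19.5 and 14.2 FPKM in WT, *wrm10* and *wrm15*, *myo-1* had 20.3, 20.0 and 14.6 FPKM, and *tnt-4* had 12.7, 12.7 and 9.08 FPKM. In polysome RNA these genes were lower in both alleles, *myo-2* by -0.36 and -0.63 on the log2 scale. The other listed pharynx genes, *phat-1* and *phat-2*, were above 0 in total RNA of both alleles (0.71 and 0.70, 0.54 and 0.27).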
